A study of Mus musculus and Homo sapiens with 67 samples.

Results

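The immunoproteasome and the peptide loading complex were followed through 10 genes: TAP1, TAP2, TAPBP, PSMB8, PSMB9, PSMB10, PSME1, PSME2, ERAP1 and PDIA3. The genes were found by symbol, ignoring case, in 4 tables of expression values, and each matched 1 row in every table, out of 60564 gene rows in the 2 human tables and 55335 in the 2 mouse tables. All 10 reached the level needed for a test in PSN1 cells, SW1990 cells and KPC tumours. In KPC cells 9 did, and Psmb9 stayed below 1 FPKM in every library.

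The proteasome degrades cytosolic proteins to peptides, and cells exposed to interferon replace its constitutive catalytic subunits PSMB5, PSMB6 and PSMB7 with PSMB8, PSMB9 and PSMB10 to form the immunoproteasome. The PA28 regulator, built from PSME1 and PSME2, caps the core and changes the peptides it releases. The transporter TAP, a heterodimer of TAP1 and TAP2, carries peptides into the endoplasmic reticulum, where ERAP1 trims them and tapasin (TAPBP), joined to PDIA3 (ERp57), helps load them onto MHC class I molecules. In pancreatic ductal adenocarcinoma this pathway is known for presenting tumour antigens to CD8 T cells.

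The samples come from pancreatic cancer models given tazemetostat, an inhibitor of the histone methyltransferase EZH2, RMC-6236, an inhibitor of GTP-bound RAS, both drugs together, or neither. The human models are the established lines PSN1 and SW1990. KPC is a mouse pancreatic cancer model, sampled as cultured cells and as orthotopic tumours in the mouse pancreas. The column headers name the tumours KPC1199 and the cultured cells only KPC, so whether both are the same line is not stated. Each cell line was sampled 3 times per arm, and the arms were tazemetostat, RMC-6236, combination and DMSO as control. The tumours were sampled 4 times per arm, and vehicle served as their control. No dose, duration or harvest time is stated in the labels of these 4 experiments, and no strain, sex, age or genotype of the mice that carried the tumours. Each cell table holds 1 cell line. Whether samples of an arm in culture were grown apart is not stated, so a p-value in the cell tables measures the spread between those samples, which may be technical spread.

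Values are FPKM, fragments mapped to a transcript per kilobase of its length, scaled to the mapped fragments of the library, as deposited. They hold no read totals, so the depth of a library is unknown, and precision is judged from the spread between samples. Between 11489 and 13414 genes reached 1 FPKM in a library, and no 2 columns of a table were identical. Changes were tested with limma on log2(FPKM + 1), a scale that understates changes of low genes. A gene is said to have risen or fallen where its Benjamini-Hochberg adjusted p, over all genes tested in that table, was below 0.05, and a change is given in log2 units with its standard error. In control samples 6 epithelial markers, such as KRT8 and EPCAM, summed to 604 to 616 FPKM in PSN1, 1671 to 1786 in SW1990 and 3363 to 3492 in KPC cells. Of 10 leukocyte markers, 3 averaged at least 1 FPKM in PSN1 controls and 5 in SW1990 controls, while PTPRC, the pan-leukocyte surface gene, was listed at 0 in those libraries. The 10 summed to 66.9 to 69.3 FPKM with RMC-6236 and 131 to 137 in control in PSN1, and to 139 to 154 with RMC-6236 and 244 to 259 in control in SW1990, and their part in the results was not tested. The 3 drug arms of a table were all compared with the same control samples, and each table was analysed by itself.

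PDIA3, a disulfide isomerase that also folds many glycoproteins outside the loading complex, was the most abundant of the 10 in the controls of every table, at 163 ± 3.0 FPKM in PSN1 cells, 218 ± 0.96 in SW1990 cells, 284 ± 6.9 in KPC cells and 181 ± 11 in tumours (mean ± SD, n = 3 in cells and 4 in tumours). The lowest were ERAP1 in the human lines, at 2.82 ± 0.22 FPKM in PSN1 and 6.33 ± 0.26 in SW1990, and Psmb9 in the mouse samples, at 0.258 ± 0.066 FPKM in KPC cells and 0.857 ± 0.24 in tumours. Control SW1990 cells held TAP1 and TAP2 at 91.3 and 90.9 FPKM and PSMB8 at 73.2, next to 10.4, 16.4 and 12.1 FPKM in control PSN1 cells. The same genes stood at 0.982, 5.22 and 0.951 FPKM in control KPC cells. These levels come from separately normalized tables and are set side by side without a test. In the order of control levels most neighbours did not overlap between samples. The ranges that did overlap were TAP1 with PSMB10 in PSN1, TAP1 with TAP2 and PSME1 with PSMB8 in SW1990, Tap1 with Psmb8 in KPC cells, and Tapbp with Psme1 and each neighbouring pair among Tap2, Erap1, Tap1 and Psmb8 in tumours.

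**Figure D1:**
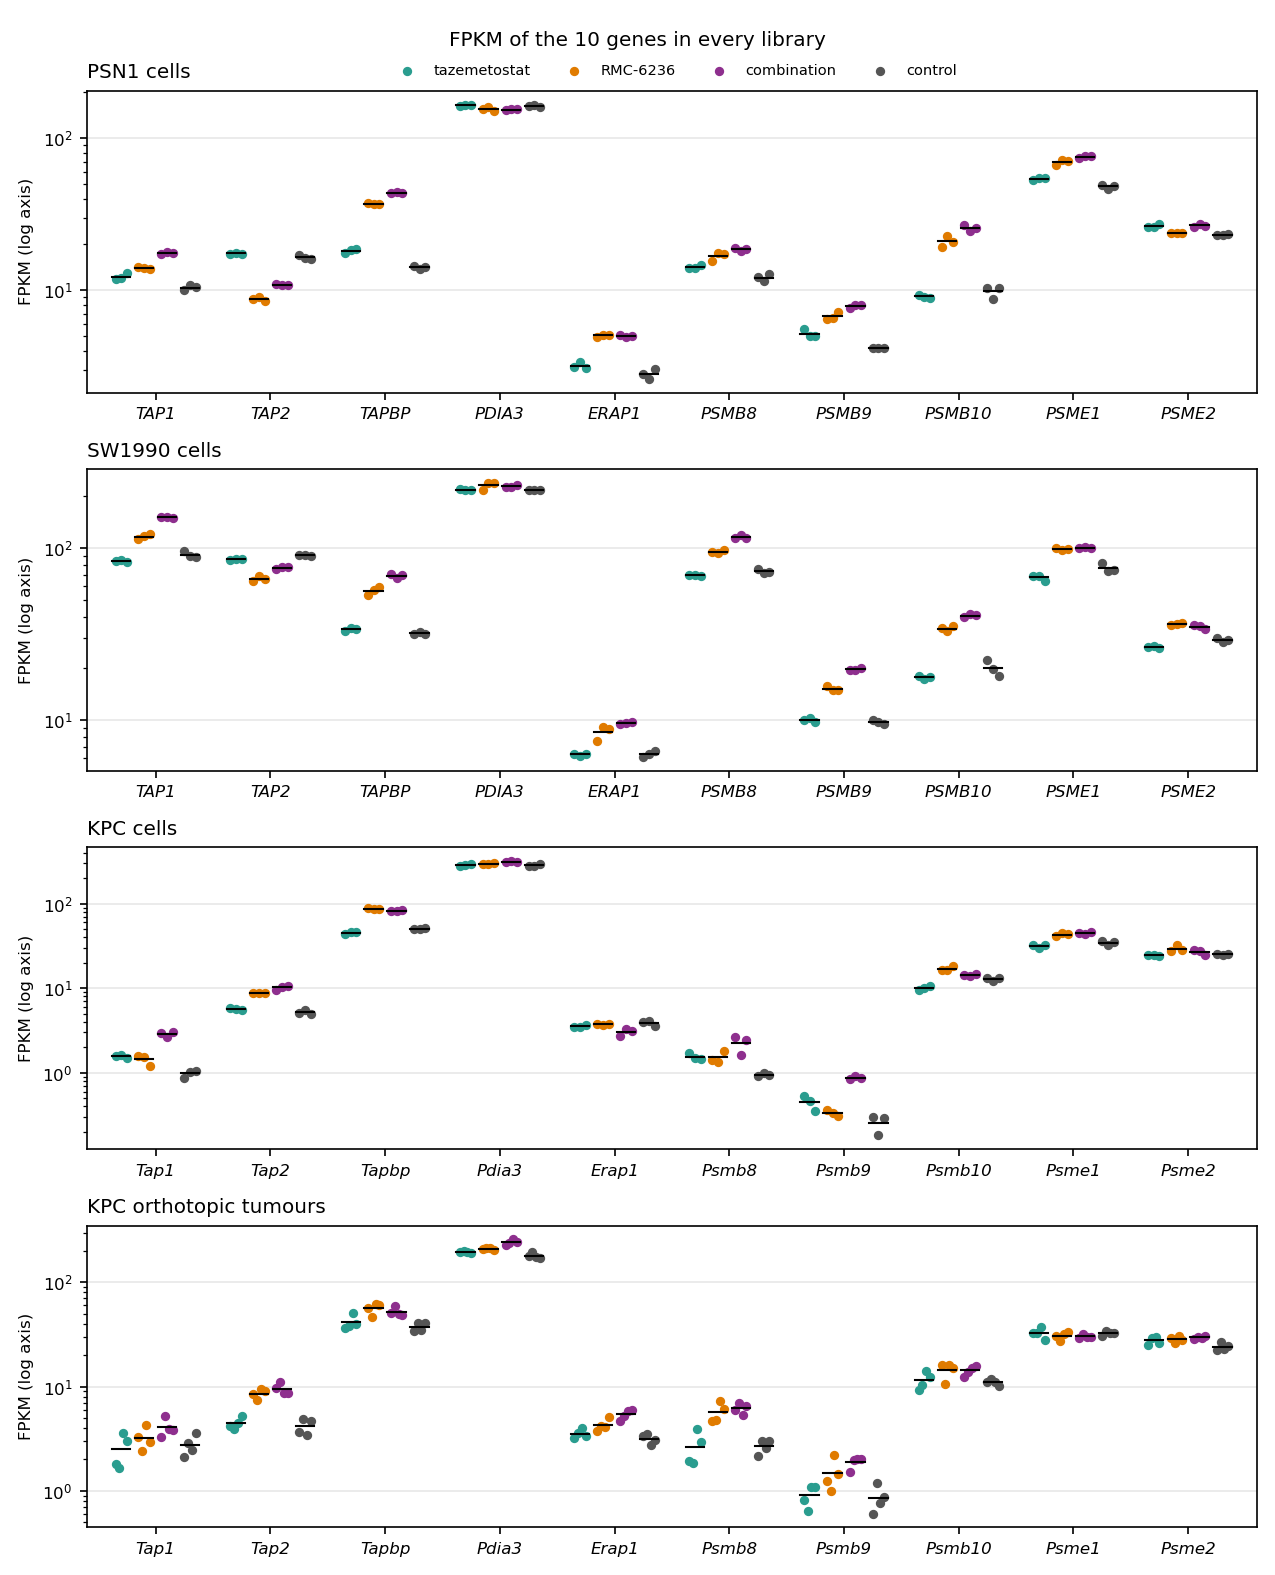
FPKM (log axis) of the 10 genes in every library, 1 panel per table, with tazemetostat, RMC-6236, combination and control samples as coloured points and the arm mean as a black bar (n = 3 in cells, 4 in tumours). TAPBP is higher with RMC-6236 and with the combination than in control in all 4 panels, whereas TAP2 is lower in PSN1 and SW1990 cells and higher in KPC cells and tumours.

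With RMC-6236, 7 of 10 genes rose and 2 fell in PSN1 cells (80.4% of all genes called, 45.8% higher and 34.6% lower), and 9 rose and 1 fell in SW1990 cells (72.4% of all genes called, 30.7% higher and 41.7% lower). In KPC cells 8 of 9 rose and 0 fell (73.7% of all genes called, 37.9% higher and 35.8% lower), and in tumours 8 of 10 rose and 0 fell (39.4% of all genes called, 20.3% higher and 19.2% lower). Most genes changed in the cell lines, and the share of members called in either direction is to be read against that. The members called were mostly higher, while over all genes higher and lower calls were nearer to even. The median change of the members was 0.48 log2 units in PSN1, 0.37 in SW1990, 0.31 in KPC cells and 0.35 in tumours, beside medians of 0.077, -0.063, 0.016 and 0.0089 over all genes tested. In SW1990 cells 42.4% of the genes called under RMC-6236 were higher, and 53.4% once libraries were rescaled by the median ratio. No called member changed direction under that scaling.

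**Figure D2:**
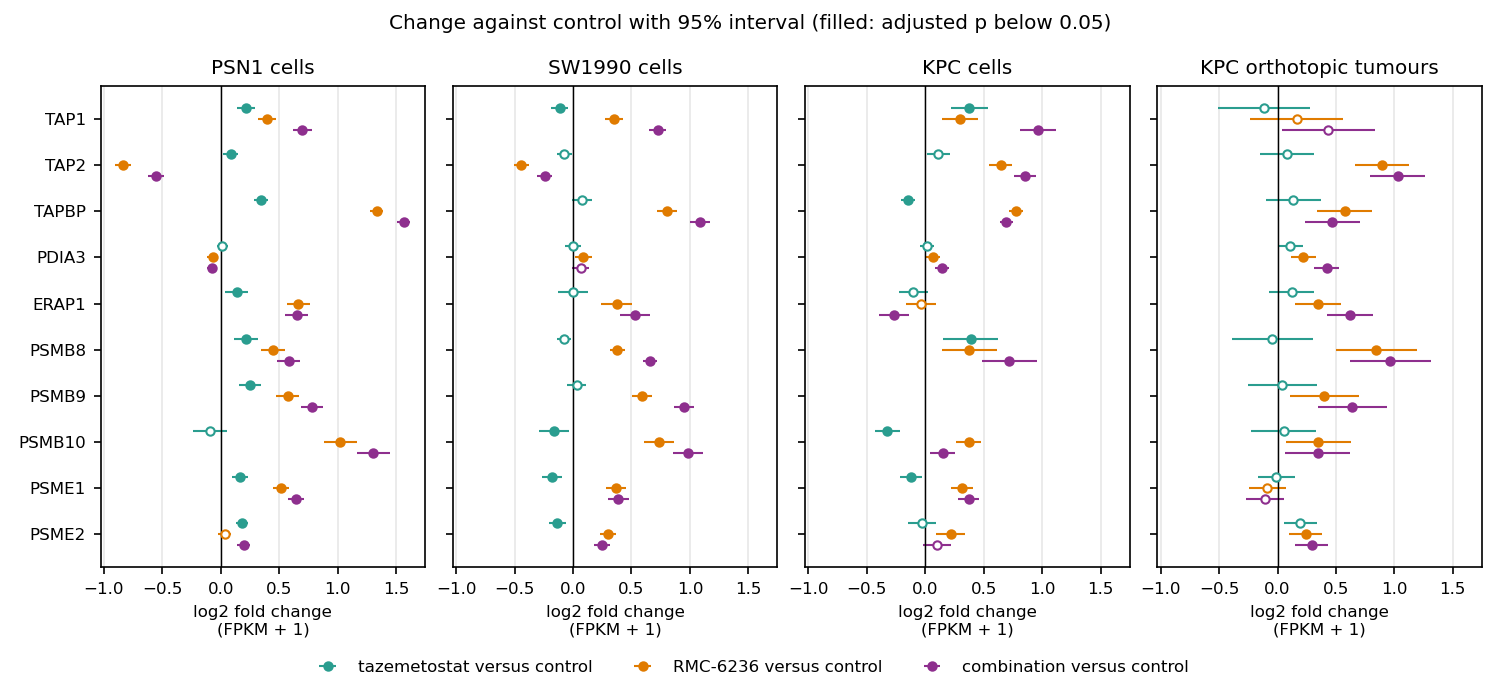
Log2 fold change of log2(FPKM + 1) against control for tazemetostat, RMC-6236 and the combination, with 95% intervals, for the 10 genes in 4 tables. Filled points have an adjusted p below 0.05 in limma; intervals in tumours are wider than in cells, and Psmb9 was not tested in KPC cells.

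Among the catalytic subunits, PSMB10, which takes the place of PSMB7, rose with RMC-6236 in all 4 tables. Its mouse gene lies outside the MHC, on the minus strand of chromosome 8 at 105935735 to 105938444 (GRCm38, GENCODE M21). PSN1 libraries held 19.3, 22.7 and 20.8 FPKM with RMC-6236 and 27.0, 24.4 and 25.5 with the combination, against 10.3, 8.74 and 10.3 in control. In SW1990 cells PSMB10 read 34.2, 32.9 and 35.1 FPKM with RMC-6236 and 39.8, 41.1 and 40.6 with the combination, against 22.5, 19.8 and 18.04 in control. In neither human line did an RMC-6236 or combination sample overlap control, and the changes were 1.02 ± 0.066 (adjusted p = 1.74e-08) in PSN1 and 0.74 ± 0.059 (adjusted p = 1.16e-07) in SW1990 for RMC-6236 alone. Psmb10 in KPC cells was 9.64, 10.1 and 10.7 FPKM with tazemetostat, 16.3, 16.6 and 18.2 with RMC-6236 and 14.3, 14.1 and 14.9 with the combination, against 13.3, 12.2 and 13.2 in control. There every RMC-6236 sample lay above control (0.37 ± 0.049, adjusted p = 1.53e-05), every tazemetostat sample lay below it (-0.32 ± 0.049, adjusted p = 0.000193), and the combination was -0.23 relative to RMC-6236 alone (adjusted p = 0.00225). The rise of the combination over control, 0.15 ± 0.049 (adjusted p = 0.0151), lost its call without control replicate 2 or combination replicate 3. Tumours held Psmb10 at 16.04, 10.7, 16.1 and 15.0 FPKM with RMC-6236 and 12.3, 13.9, 15.1 and 15.8 with the combination, against 11.005, 11.7, 11.1 and 10.2 in control. RMC-6236 replicate 2 lay within the control range, and the rise with RMC-6236 (0.35 ± 0.13, adjusted p = 0.0461) failed in 10 of 16 fits that each left out 1 tumour and in the fit without a filter on low values. The rise with the combination (0.34 ± 0.13, adjusted p = 0.0394, limma) lost its call in 6 of 16 such fits.

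PSMB8, the counterpart of PSMB5, rose with RMC-6236 in every table. The human lines read 15.6, 17.6 and 17.4 FPKM with RMC-6236 and 18.96, 18.2 and 18.6 with the combination, against 12.1, 11.4 and 12.7 in control, for PSN1, and 95.1, 94.2 and 97.0 with RMC-6236 and 114, 119 and 115 with the combination, against 75.4, 71.5 and 72.6 in control, for SW1990. Neither treated arm overlapped control in either line, and PSMB8 rose by 0.45 ± 0.046 (adjusted p = 1.44e-06), in PSN1 and by 0.38 ± 0.029 (adjusted p = 6.22e-08), in SW1990 with RMC-6236. In KPC cells Psmb8 was low, at 1.70, 1.496 and 1.46 FPKM with tazemetostat, 1.43, 1.36 and 1.83 with RMC-6236 and 2.63, 1.63 and 2.46 with the combination, against 0.920, 0.995 and 0.937 in control. All 9 treated samples were above the 3 controls, and the rise was 0.38 ± 0.11 (adjusted p = 0.00713) with RMC-6236 and 0.39 ± 0.11 (adjusted p = 0.0116) with tazemetostat. Psmb8 in tumours was 4.70, 4.74, 7.26 and 6.06 FPKM with RMC-6236 and 5.96, 6.99, 5.35 and 6.52 with the combination, against 2.18, 3.02, 2.58 and 3.01 in control. No tumour of these 2 arms overlapped control, with changes of 0.84 ± 0.16 (adjusted p = 0.00101) and 0.96 ± 0.16 (adjusted p = 0.000181). With tazemetostat alone the 4 tumours, at 1.93, 1.87, 3.88 and 2.94 FPKM, spanned the control range.

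PSMB9, the counterpart of PSMB6, rose by 0.57 ± 0.044 in PSN1 and 0.59 ± 0.038 in SW1990 with RMC-6236 and by 0.78 ± 0.044 and 0.95 ± 0.038 with the combination (adjusted p of 7.29e-08, 1.2e-08, 2.59e-09 and 4.99e-11, limma). PSN1 libraries held 6.48, 6.51 and 7.17 FPKM with RMC-6236 and 7.67, 8.04 and 8.02 with the combination, against 4.19, 4.19 and 4.19 in control. SW1990 libraries held 15.7, 14.9 and 14.9 FPKM with RMC-6236 and 19.5, 19.6 and 20.2 with the combination, against 10.004, 9.75 and 9.47 in control, and the 3 arms did not overlap. KPC cells held Psmb9 at 0.531, 0.468 and 0.358 FPKM with tazemetostat, 0.360, 0.333 and 0.307 with RMC-6236 and 0.833, 0.915 and 0.876 with the combination, against 0.301, 0.181 and 0.291 in control. These values lie below the level needed for a test, and the combination samples were the highest of the 12. In tumours Psmb9 read 1.23, 0.988, 2.19 and 1.46 FPKM with RMC-6236 and 1.53, 1.96, 2.01 and 2.02 with the combination, against 0.603, 1.18, 0.768 and 0.875 in control. The combination did not overlap control (0.64 ± 0.14, adjusted p = 0.00133). RMC-6236 did, and its rise (0.40 ± 0.14, adjusted p = 0.0329) lost the call without control replicate 1, 3 or 4 and without RMC-6236 replicate 3 or 4.

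The level of each immunoproteasome subunit relative to its constitutive counterpart was taken within each library, so that the scaling of the library cancels. In control cells PSMB8 stood at 84.5 ± 2.2% of PSMB5 in SW1990, 13.8 ± 0.92% in PSN1 and 0.962 ± 0.051% in KPC cells (SD, n = 3). In SW1990 cells this ratio was 95.2 ± 1.8% with tazemetostat, 149 ± 4.4% with RMC-6236 and, in the combination, 219.9 ± 5.1%. The SW1990 ratio of PSMB9 to PSMB6 was 24.6 ± 0.54%, 37.2 ± 0.92% and 58.5 ± 0.66% in the same 3 arms, against 19.7 ± 0.22% in control. PSMB10 relative to PSMB7 was 92.8 ± 3.6% with RMC-6236 and 134 ± 3.1% with the combination, against 38.6 ± 2.9% in control. In PSN1 cells PSMB10 relative to PSMB7 was 43.7 ± 0.64% with RMC-6236 and 50.8 ± 4.3% with the combination, against 15.6 ± 1.2% in control, while PSMB8 relative to PSMB5 was 24.4 ± 1.3% and 24.8 ± 1.2%. KPC cells had Psmb8 at 1.87 ± 0.29% of Psmb5 with RMC-6236 and 2.96 ± 0.60% with the combination, and Psmb10 at 31.2 ± 2.8% of Psmb7 with tazemetostat and 69.2 ± 4.5% with RMC-6236, against 39.4 ± 2.6% in control. In each cell table and for each of the 3 ratios, every sample with RMC-6236 and every sample with the combination was above every control. The exact permutation test of 3 against 3 samples cannot go below p = 0.1, the value it gave for each of these 18 comparisons. With tazemetostat alone, PSMB8 to PSMB5 and PSMB9 to PSMB6 also lay above every control in each cell table, with the same exact permutation p. PSMB10 to PSMB7 with tazemetostat overlapped control in PSN1 and SW1990 cells and lay below it in KPC cells.

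In tumours Psmb8 stood at 7.58 ± 1.4% of Psmb5 with RMC-6236 and 7.83 ± 1.4% with the combination, against 3.89 ± 0.72% in control (SD, n = 4). The 2 treated arms did not overlap control, and each gave an exact two-sided permutation p of 0.0286, the smallest that 4 against 4 samples allow, or 0.0857 adjusted over the 9 ratios tested in tumours. Psmb9 relative to Psmb6 was 3.30 ± 0.44% with the combination and 2.45 ± 0.76% with RMC-6236, against 1.52 ± 0.41% in control, with exact permutation p of 0.0286 and 0.0571. Psmb10 relative to Psmb7 was 56.6 ± 9.4% with RMC-6236 against 44.8 ± 5.9% in control, with overlap and an exact permutation p of 0.0857. With tazemetostat alone all 3 tumour ratios overlapped control, with exact permutation p of 0.457, 0.971 and 0.886.

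**Figure D3:**
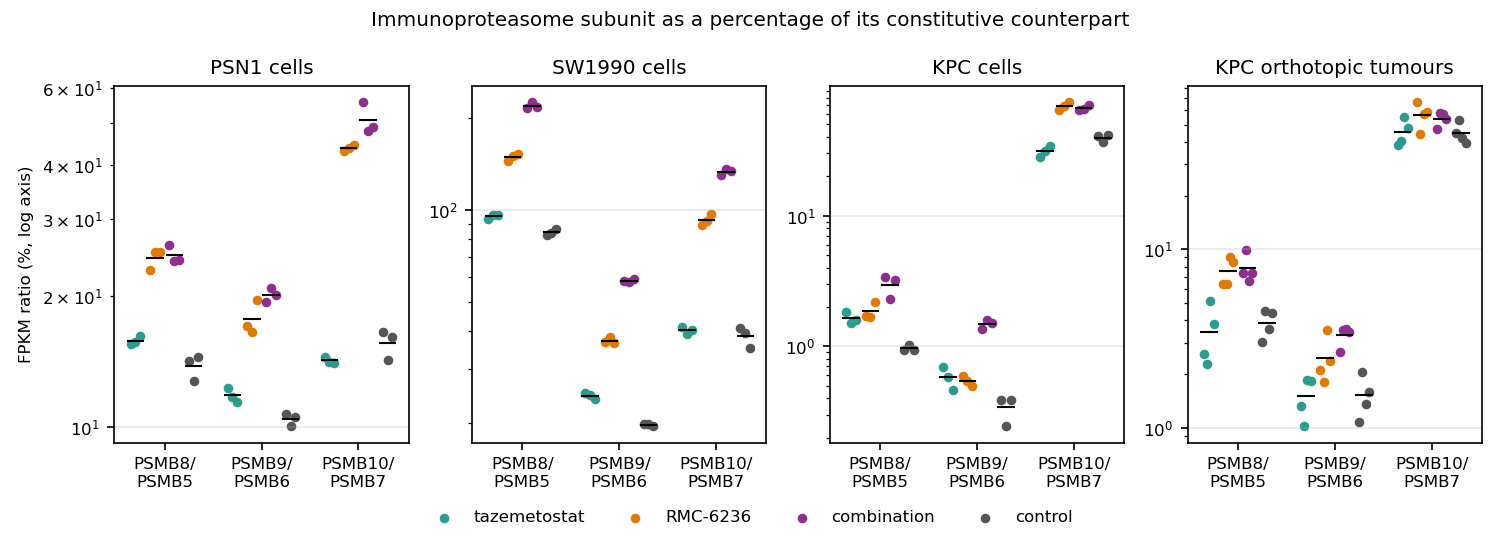
FPKM of PSMB8, PSMB9 and PSMB10 as a percentage of PSMB5, PSMB6 and PSMB7 in every library (log axis), by table and arm, with the arm mean as a black bar. In the 3 cell tables all RMC-6236 and combination samples lie above control for each ratio, and in tumours this holds for PSMB8/PSMB5.

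Under RMC-6236 the numerator and the denominator of these ratios moved in opposite directions in the cell lines. With RMC-6236 the constitutive subunits PSMB5, PSMB6 and PSMB7 all fell, with changes of -0.34, -0.076 and -0.38 in PSN1, -0.43, -0.27 and -0.49 in SW1990 and -0.26, -0.29 and -0.40 in KPC cells. Over all genes, 34.6%, 41.7% and 35.8% were called lower with RMC-6236 in PSN1, SW1990 and KPC cells. Of the other 11 subunits of the 20S core, 9 fell in PSN1 and 10 in each of SW1990 and KPC cells (medians -0.27, -0.37 and -0.37). Of the 18 subunits of the 19S particle, which recognizes ubiquitin-tagged proteins, 17, 18 and 17 fell (medians -0.45, -0.50 and -0.42). Among 8 other activators and assembly factors, 7, 7 and 6 fell, including PSME3, the nuclear relative of the PA28 subunits, at -0.64, -0.85 and -0.64, and the assembly factor POMP at -0.37, -0.59 and -0.53. With the combination all 3 constitutive subunits fell in SW1990 and KPC cells and 2 of 3 in PSN1 (40.9%, 38.7% and 37.1% of all genes lower). With tazemetostat alone, 3 of 3 constitutive, 7 of 11 other core and 8 of 18 subunits of the 19S particle fell in SW1990 cells (14.4% of all genes lower). In PSN1 0, 0 and 2 fell (22.5% of all genes lower), and in KPC cells 0, 1 and 1 (25.5% of all genes lower). In tumours under RMC-6236 the counts were different. By limma, 0 of 3 constitutive subunits and 0 of the 11 other core subunits were called, and 2 of 18 subunits of the 19S particle fell. The medians were 0.074, 0.0048 and -0.025, and 20.3% of all genes were called higher and 19.2% lower.

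**Figure D4:**
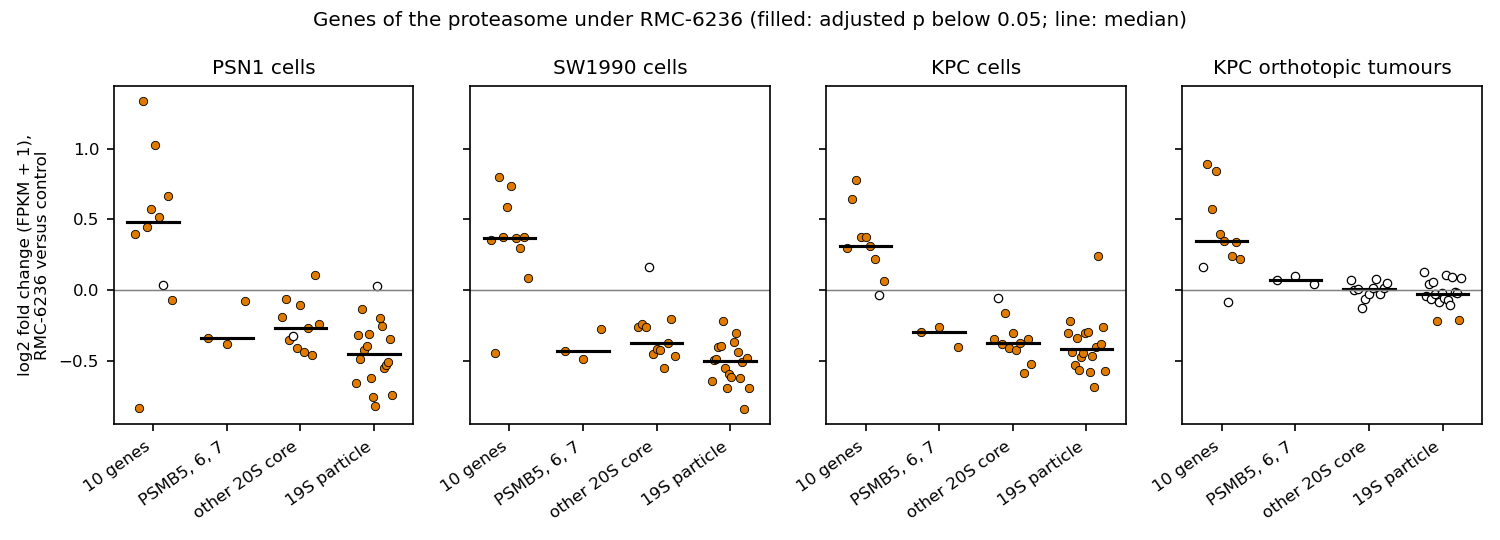
Log2 fold change of log2(FPKM + 1) with RMC-6236 against control for the tested genes among the 10 members, for PSMB5, PSMB6 and PSMB7, for the other 20S core subunits and for the 19S particle. Points are genes (filled: adjusted p below 0.05 in limma) and lines are medians; the constitutive lists lie mostly below 0 in the cell lines and around 0 in tumours.

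Of the PA28 subunits, PSME1 rose with RMC-6236 in the 3 cell lines, to 66.2, 71.4 and 70.3 FPKM in PSN1, against 49.3, 46.3 and 48.6 in control, and to 101, 98.0 and 99.1 in SW1990, against 81.9, 73.7 and 74.8 in control. KPC cells had Psme1 at 41.6, 44.5 and 43.4 FPKM with RMC-6236, against 36.3, 32.6 and 34.8 in control. No sample overlapped in the 3 lines, and the changes were 0.52 ± 0.031, 0.37 ± 0.041 and 0.31 ± 0.043 (adjusted p of 5.73e-09, 2.81e-06 and 2.21e-05, limma). In tumours Psme1 was 30.7, 27.1, 32.2 and 33.0 FPKM with RMC-6236 and 29.1, 31.9, 30.2 and 29.6 with the combination, against 30.5, 34.3, 33.0 and 32.9 in control. The arms overlapped, with changes of -0.087 ± 0.075 (adjusted p = 0.380) and -0.11 ± 0.075 (adjusted p = 0.237), and 95% intervals of -0.25 to 0.073 and -0.27 to 0.051. With RMC-6236 PSME2 changed less than PSME1 in the cell lines and more in tumours, and the difference between the subunits was not tested. PSME2 rose by 0.30 ± 0.033 in SW1990, 0.22 ± 0.056 in KPC cells and 0.24 ± 0.066 in tumours (adjusted p of 2.38e-06, 0.00372 and 0.0102, limma). In PSN1 its change was 0.034 ± 0.025 (adjusted p = 0.221), with a 95% interval of -0.020 to 0.087. The ratio of PSME1 to PSME2, taken after the values had been seen and given without a test, was 2.92 ± 0.11 with RMC-6236 and 2.08 ± 0.052 in control in PSN1 cells, 2.74 ± 0.056 and 2.62 ± 0.082 in SW1990, 1.47 ± 0.085 and 1.37 ± 0.053 in KPC cells, and 1.08 ± 0.062 and 1.36 ± 0.059 in tumours (SD). The RMC-6236 and control ranges overlapped in SW1990 and KPC cells and did not in PSN1 cells and tumours.

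The subunits of the TAP transporter moved in opposite directions in the human lines. TAP2 fell with RMC-6236, to 8.81, 8.99 and 8.47 FPKM in PSN1, with 10.99, 10.8 and 10.8 in the combination, against 17.1, 16.2 and 15.98 in control, and all treated samples lay below control (-0.84 ± 0.031, adjusted p = 4.43e-11 for RMC-6236). In SW1990 cells TAP2 was 64.7, 69.2 and 65.9 FPKM with RMC-6236 and 75.5, 77.2 and 77.3 with the combination, against 91.0, 91.4 and 90.3 in control, again without overlap (-0.44 ± 0.029, adjusted p = 1.34e-08 for RMC-6236). In both lines the combination lay above RMC-6236 alone, by 0.28 ± 0.031 in PSN1 and 0.20 ± 0.029 in SW1990. TAP1 rose in the same cells. It was 11.8, 12.01 and 12.95 FPKM with tazemetostat, 14.2, 13.9 and 13.8 with RMC-6236 and 17.2, 17.8 and 17.5 with the combination, against 9.99, 10.7 and 10.45 in control, in PSN1, and no 2 of the 4 arms overlapped. In SW1990 cells TAP1 read 83.7, 85.6 and 83.1 FPKM with tazemetostat, 113, 117 and 120.3 with RMC-6236 and 153, 152 and 149.5 with the combination, against 95.8, 89.8 and 88.2 in control. Tazemetostat alone lay below control there (-0.12 ± 0.034, adjusted p = 0.0186), a call lost in 3 of 12 fits that left out 1 library. The combination lay above RMC-6236 (0.37 ± 0.034, adjusted p = 1.55e-06).

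In the mouse samples Tap2 rose. KPC cells held it at 8.70, 8.80 and 8.67 FPKM with RMC-6236 and 9.63, 10.4 and 10.7 with the combination, against 5.16, 5.50 and 5.01 in control, without overlap (0.64 ± 0.045, adjusted p = 2.94e-08 and 0.85 ± 0.045, adjusted p = 1.29e-09). Tumours held Tap2 at 4.18, 3.90, 4.44 and 5.27 FPKM with tazemetostat, 8.43, 7.36, 9.49 and 8.97 with RMC-6236 and 9.69, 11.1, 8.67 and 8.59 with the combination, against 3.66, 4.92, 3.45 and 4.65 in control. The lowest RMC-6236 tumour was above the highest control, and on the log2(FPKM + 1) scale Tap2 gave the largest change of the 10 genes in tumours, 0.89 ± 0.11 (adjusted p = 3.09e-05) with RMC-6236 and 1.03 ± 0.11 (adjusted p = 2.86e-06) with the combination. As a ratio of mean FPKM to control, Tap2 was 2.05 with RMC-6236 and 2.28 with the combination, and Psmb8 was 2.11 and 2.30. Tap1 in KPC cells was 1.58, 1.64 and 1.51 FPKM with tazemetostat, 1.59, 1.53 and 1.21 with RMC-6236 and 2.97, 2.62 and 3.02 with the combination, against 0.877, 1.03 and 1.04 in control. All treated samples were above control, and the combination rose by 0.96 ± 0.071. In tumours Tap1 spread from 2.38 to 4.24 FPKM with RMC-6236 and from 3.29 to 5.19 with the combination, against 2.13 to 3.56 in control, and neither change was called (0.16 ± 0.19, adjusted p = 0.513, and 0.43 ± 0.19, adjusted p = 0.0620). The combination in tumours did reach the threshold when libraries were rescaled, when only the arms compared were fitted (adjusted p of 0.0488 and 0.0268) and in 3 of 16 fits that left out 1 tumour. The ratio of TAP1 to TAP2, also taken after the values had been seen, was 1.60 ± 0.044 with RMC-6236 and 0.634 ± 0.043 in control in PSN1, 1.75 ± 0.067 and 1.004 ± 0.043 in SW1990, 0.166 ± 0.023 and 0.188 ± 0.019 in KPC cells, and 0.372 ± 0.058 and 0.662 ± 0.095 in tumours (SD).

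In the mouse genome (GRCm38, GENCODE M21) 4 of these genes form a cluster in the MHC on chromosome 17: Psmb9 on the minus strand at positions 34181987 to 34187764, then Tap1 at 34187553 to 34197225, Psmb8 at 34197721 to 34201454 and Tap2 at 34203527 to 34216321 on the plus strand, with Tapbp on the same chromosome at 33915899 to 33929292. Psme1 and Psme2 lie close together on chromosome 14, at 55578123 to 55581529 and 55587441 to 55591113, with Erap1 on chromosome 13 and Pdia3 on chromosome 2. The spans are those of the annotated gene records rather than of single transcripts. Start sites were taken from RefSeq (GRCm38.p6), which holds a promoter window of 300 bases, 250 before and 50 after the start, for 9 of the 10 genes. Both strands of each window were searched for the core of the interferon-stimulated response element (ISRE, GAAA, any 2 bases, then GAAA), the gamma-activated site of interferon-gamma responses (GAS, TTCNNNGAA), an NF-kB site (GGGA, any base, then TTTCC) and the GC box (GGGCGG). Of 32851 mouse promoter windows of that length, 3.44% hold the ISRE core, 8.30% the GAS, 0.411% the NF-kB site and 35.7% the GC box. The 4 sequences that follow are shown because Erap1 and Psme1 hold the ISRE core, Psmb8 the GAS, and Tap1 and Psmb9 start from the ends of a shared stretch. Matches are in capitals, whichever strand they lie on, and all are written on the plus strand:
Tap1 and Psmb9, chr17:34187331-34187555 (+): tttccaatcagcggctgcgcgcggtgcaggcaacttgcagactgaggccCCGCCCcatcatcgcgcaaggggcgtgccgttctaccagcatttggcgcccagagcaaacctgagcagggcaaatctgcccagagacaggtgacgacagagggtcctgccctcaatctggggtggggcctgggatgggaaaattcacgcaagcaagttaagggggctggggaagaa
Psmb8, chr17:34197945-34198214 (+): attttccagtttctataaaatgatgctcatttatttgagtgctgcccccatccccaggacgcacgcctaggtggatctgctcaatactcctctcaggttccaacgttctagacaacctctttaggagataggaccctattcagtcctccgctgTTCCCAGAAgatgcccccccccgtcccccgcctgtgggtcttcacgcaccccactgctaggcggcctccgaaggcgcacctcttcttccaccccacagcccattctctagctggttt
Psme1, chr14:55578244-55578513 (+): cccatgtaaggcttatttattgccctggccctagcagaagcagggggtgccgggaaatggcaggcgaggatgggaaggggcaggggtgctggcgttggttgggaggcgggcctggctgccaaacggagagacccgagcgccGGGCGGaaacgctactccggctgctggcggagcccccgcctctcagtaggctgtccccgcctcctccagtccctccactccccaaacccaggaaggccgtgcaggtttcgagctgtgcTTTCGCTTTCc
Erap1, chr13:74639603-74639872 (+): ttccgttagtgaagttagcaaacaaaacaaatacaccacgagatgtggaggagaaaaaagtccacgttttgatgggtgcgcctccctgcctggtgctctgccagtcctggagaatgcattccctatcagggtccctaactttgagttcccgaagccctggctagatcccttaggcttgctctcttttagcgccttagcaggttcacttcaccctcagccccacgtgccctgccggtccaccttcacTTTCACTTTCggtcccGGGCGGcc

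The first stretch holds the 225 bases between the start sites of Psmb9 and Tap1, with a GC box on the minus strand at bases -176 to -171 from the Tap1 start, which are bases -55 to -50 from the Psmb9 start. The other 3 run from 250 bases before the start to 20 bases after it. Psmb8 has a GAS at bases -97 to -89 from its start. Psme1 has an ISRE core on the minus strand at bases 10 to 19 of the transcript and a GC box at bases -109 to -104. Erap1 has an ISRE core on the minus strand that spans the start, from base -4 to base 6, and a GC box at bases 13 to 18. No 2 of these matches overlap. In KPC cells under RMC-6236 Psme1 and Psmb8 rose (0.31 and 0.38) and Erap1 changed by -0.037 ± 0.058 (adjusted p = 0.582), whereas in tumours Psmb8 and Erap1 rose (0.84 and 0.34) and Psme1 changed by -0.087 ± 0.075 (adjusted p = 0.380). Tapbp, which rose in both, has a GC box at bases -51 to -46 and no match to the other 3 motifs, which says only that these letters are not in that window.

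TAPBP, the tapasin chaperone that holds an empty MHC class I molecule next to TAP, rose with RMC-6236 in every table, and in the 3 cell lines its change was the largest among the 10 genes. PSN1 libraries held 17.5, 18.3 and 18.7 FPKM with tazemetostat, 37.5, 36.9 and 36.9 with RMC-6236 and 43.4, 44.0 and 43.7 with the combination, against 14.3, 13.8 and 14.2 in control. No 2 of the 4 arms overlapped, and the changes from control were 0.34 ± 0.026 (adjusted p = 3.94e-07), 1.33 ± 0.026 (adjusted p = 1.45e-13), and 1.57 ± 0.026 (adjusted p = 2.17e-14). In SW1990 cells TAPBP read 53.2, 57.0 and 59.2 FPKM with RMC-6236 and 70.6, 66.7 and 70.04 with the combination, against 31.7, 32.5 and 31.7 in control (0.80 ± 0.040, adjusted p = 8.74e-10, and 1.09 ± 0.040, adjusted p = 1.96e-11). Tazemetostat alone gave 32.9, 34.5 and 33.7 FPKM, each just above control, and was not called (0.075 ± 0.040, adjusted p = 0.163). KPC cells held Tapbp at 44.1, 45.7 and 46.9 FPKM with tazemetostat, 88.7, 86.9 and 86.6 with RMC-6236 and 81.3, 81.7 and 84.1 with the combination, against 50.004, 50.5 and 51.1 in control. There tazemetostat lay below control (-0.15 ± 0.027, adjusted p = 0.00085) and the combination below RMC-6236 (-0.085 ± 0.027, adjusted p = 0.0210), a call that was lost when libraries were rescaled. Tumours held Tapbp at 57.3, 46.0, 61.6 and 61.1 FPKM with RMC-6236 and 51.1, 59.2, 49.7 and 49.0 with the combination, against 34.2, 40.3, 34.5 and 40.9 in control, without overlap (0.57 ± 0.11, adjusted p = 0.00101, and 0.47 ± 0.11, adjusted p = 0.00255).

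Its partner PDIA3 moved little in the cell lines. With RMC-6236 its change was -0.070 ± 0.021 in PSN1, 0.089 ± 0.033 in SW1990, 0.066 ± 0.028 in KPC cells and 0.22 ± 0.049 in tumours (adjusted p of 0.00930, 0.0277, 0.0449 and 0.00250, limma). The calls in SW1990 and KPC cells were lost without a filter on low values and with only the arms compared in the fit. In tumours Pdia3 read 207, 215, 214 and 205 FPKM with RMC-6236 and 229.9, 237, 258 and 243 with the combination, against 180.0, 196, 174 and 172 in control, and the 3 arms did not overlap. ERAP1, the aminopeptidase, rose with RMC-6236 to 4.95, 5.07 and 5.11 FPKM in PSN1, against 2.81, 2.61 and 3.04 in control, and to 7.52, 9.16 and 8.87 in SW1990, against 6.08, 6.32 and 6.60 in control. All treated samples were above control in both lines (0.66 ± 0.045, adjusted p = 1.92e-08, and 0.37 ± 0.060, adjusted p = 8.27e-05). Erap1 went the other way in KPC cells with the combination, at 2.73, 3.32 and 3.13 FPKM, against 3.78, 3.71 and 3.77 with RMC-6236 and 3.94, 4.12 and 3.58 in control. The combination lay below both (-0.27 ± 0.058, adjusted p = 0.000945, relative to control, and -0.23 ± 0.058, adjusted p = 0.00558, relative to RMC-6236). In tumours Erap1 was 3.78, 4.20, 4.09 and 5.12 FPKM with RMC-6236 and 4.63, 5.22, 5.88 and 5.95 with the combination, against 3.33, 3.53, 2.72 and 3.10 in control, again without overlap of control (0.34 ± 0.092, adjusted p = 0.00890, and 0.62 ± 0.092, adjusted p = 5.64e-05).

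Tazemetostat alone gave changes that differed by model. In PSN1 cells 8 of 10 genes rose and 0 fell, with 46% of all genes called, 23.6% higher and 22.5% lower, and the medians were 0.17 for the members and -0.0036 over all genes. The members furthest from 0 were TAPBP at 0.34, PSMB9 at 0.25 and TAP1 at 0.22, and the calls of TAP2 and ERAP1 were lost without the filter on low values. Leaving out 1 library also removed the TAP2 call in 7 of 12 fits and the ERAP1 call in 3 of 12. In SW1990 cells 0 rose and 4 fell, TAP1, PSMB10, PSME1 and PSME2, at -0.12, -0.16, -0.18 and -0.13, with 37.5% of all genes called, 23.1% higher and 14.4% lower. PSMB10 overlapped control and lost its call in 10 of 12 fits that left out 1 library, and TAP1 lost its call in 3 of 12. Without control replicate 1, tazemetostat replicate 1 or tazemetostat replicate 3, 2 members were called. In KPC cells Tap1 and Psmb8 rose, by 0.38 and 0.39, and Tapbp, Psmb10 and Psme1 fell, with changes of -0.15, -0.32 and -0.12, with 44.1% of all genes called, 18.6% higher and 25.5% lower. Tap1 and Psmb8 are low there, where log2(FPKM + 1) understates changes. As a ratio of mean FPKM to control they were 1.60 and 1.63, next to 1.47 and 1.62 with RMC-6236. The Psme1 call was lost in 4 of 12 fits that left out 1 library. In tumours limma called 0 of 10 members and 0% of 13545 genes. At an unadjusted p below 0.05 it called 1023 genes, or 7.55%, among them 2 members, Psme2 at 0.19 ± 0.066 and Pdia3 at 0.11 ± 0.049.

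Against control, the combination raised 8 of 10 members and lowered TAP2 and PDIA3 in PSN1 (82.6% of all genes called, 45.5% higher and 37.1% lower), and raised 8 and lowered TAP2 in SW1990 (79.2% of all genes called, 38.3% higher and 40.9% lower). In KPC cells 7 of 9 rose and Erap1 fell (76.4% of all genes called, 37.8% higher and 38.7% lower), and in tumours 8 of 10 rose and 0 fell (52.4% of all genes called, 26.7% higher and 25.7% lower). Member medians were 0.65, 0.59, 0.37 and 0.45 in these 4 tables, beside 0.069, -0.023, -0.0023 and -0.00070 over all genes. Against tazemetostat alone the combination raised 7 and lowered 2 members in PSN1 (79.9% of all genes called, 43.8% higher and 36.1% lower), raised 8 and lowered TAP2 in SW1990 (75.9% of all genes called, 33.6% higher and 42.3% lower), raised 7 and lowered Erap1 in KPC cells (76.3% of all genes called, 39% higher and 37.3% lower), and raised 7 in tumours (51% of all genes called, 24.7% higher and 26.3% lower).

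Against RMC-6236 alone, where the arms differ by tazemetostat, the combination raised 8 of 10 members in PSN1 and lowered 0 (54.2% of all genes called, 24.1% higher and 30.1% lower). The furthest from 0 were TAP1 at 0.30 ± 0.036, TAP2 at 0.28 ± 0.031, PSMB10 at 0.28 ± 0.066 and TAPBP at 0.23 ± 0.026, and ERAP1 and PDIA3 were the members not called. In SW1990 it raised 7 and lowered 0 (48% of all genes called, 29.8% higher and 18.3% lower), with TAP1 at 0.37 ± 0.034, PSMB9 at 0.36 ± 0.038 and TAPBP at 0.29 ± 0.040. Of the 7, ERAP1 at 0.16 ± 0.060 lost its call in 9 of 12 fits that left out 1 library. In KPC cells it raised Tap1, Tap2, Psmb8 and Pdia3 and lowered Tapbp, Psmb10 and Erap1 (48.8% of all genes called, 20.3% higher and 28.5% lower). Tap1 at 0.66 ± 0.071 and Psmb8 at 0.34 ± 0.11 were the furthest above 0, though Psmb8 overlapped between the arms, and 4 members were called without RMC-6236 replicate 1. In tumours 1 member was called, Pdia3 at 0.20 ± 0.049 (adjusted p = 0.0203), with 8.13% of all genes called, 5.16% higher and 2.97% lower. Its call was lost without RMC-6236 replicate 1 or 4 or combination replicate 3 or 4, and with only the arms compared.

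The interaction term asks whether the combination differs from the sum of the single drugs on the log2 scale. In SW1990 cells it was above 0 for 7 of 10 members and below 0 for 0, with 15.2% of all genes called, 9.03% higher and 6.19% lower than 0. The terms were 0.49 ± 0.049 for TAP1, 0.40 ± 0.084 for PSMB10, 0.36 ± 0.041 for PSMB8, 0.33 ± 0.054 for PSMB9, 0.27 ± 0.041 for TAP2, 0.21 ± 0.056 for TAPBP and 0.20 ± 0.058 for PSME1, with adjusted p between 2.39e-05 and 0.0347 (limma). TAP1 in the combination was 0.72 relative to control, where tazemetostat alone gave -0.12 and RMC-6236 alone 0.35. Between 5 and 7 members passed when single libraries were left out, and TAPBP and PSME1 were the ones that did not always pass. In PSN1 cells TAP2 and PSMB10 passed above 0 (0.20 ± 0.043 and 0.38 ± 0.093) and TAPBP below (-0.11 ± 0.037), with 23.6% of all genes called, 9.8% higher and 13.8% lower. The TAPBP call (adjusted p = 0.0464, limma) was lost in 10 of 12 fits that left out 1 library. In KPC cells 0 of 9 passed in limma (25.8% of all genes called, 12.1% higher and 13.7% lower), with 2 at an unadjusted p below 0.05, Tap1 at 0.29 ± 0.10 (adjusted p = 0.0541) and Psme1 at 0.18 ± 0.061 (adjusted p = 0.0506). In tumours 0 of 10 passed (1.86% of all genes called, 1.49% higher and 0.369% lower) and 0 had an unadjusted p below 0.05, with intervals as wide as -0.17 to 0.95 for Tap1.

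Tumours are mixtures, and in bulk RNA fewer cells of a type and less RNA per cell cannot be told apart. Summed FPKM of 10 general leukocyte markers were 101 to 123 with RMC-6236 and 148 to 193 with the combination, against 53.7 to 69.5 in control, and 9 and 10 of the 10 rose. The ranges did not overlap, as was the case for Psmb8 and Tap2. Macrophage markers summed to 1213 to 1732 with RMC-6236 and 1567 to 2156 with the combination, against 526 to 649.6 in control (9 and 11 of 12 rose). Fibroblast markers summed to 3033 to 4049.6 and 3394 to 3984, against 875 to 1186 in control (7 and 10 of 11 rose). T cell markers were low in each of these arms, at 0.896 to 2.30 with RMC-6236, 3.11 to 6.87 with the combination and 0.491 to 1.64 in control. Every combination tumour nevertheless lay above every control for this sum. The 6 epithelial tumour cell markers summed to 1445 to 2022 with RMC-6236 and 840.5 to 1399 with the combination, against 3111 to 3882 in control, and 4 of 6 fell in each. Acinar markers, which mark normal exocrine pancreas, summed to 5.28 to 90.8 with RMC-6236 and 85.8 to 3035 with the combination, against 12.1 to 43.2 in control (0 and 9 of 9 rose). Of 7 neutrophil markers 0 rose with RMC-6236 and 6 with the combination, of 3 dendritic cell markers 0 and 2 rose, and of 8 endothelial markers 1 and 8 rose. Over all genes in tumours, 20.3% were called higher with RMC-6236 and 26.7% with the combination, and 19.2% and 25.7% lower.

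With the mean log2 level of the leukocyte markers as a covariate, 1 of the 8 calls under RMC-6236 was left, Tap2 at 0.86 ± 0.22 (adjusted p = 0.0355, limma), and 0 of the 8 under the combination. The estimates for Tapbp and Psmb8 under RMC-6236 were then 0.63 ± 0.22 and 0.68 ± 0.33. Under the combination Tap2 was then 0.96 ± 0.39, Tapbp 0.57 ± 0.40 and Psmb8 0.65 ± 0.58, with standard errors above those of 1.03 ± 0.11, 0.47 ± 0.11 and 0.96 ± 0.16 in the fit without the covariate. The summed leukocyte markers did not overlap between control and either arm, so in this fit treatment and leukocyte content cannot be told apart. With the acinar score as covariate all 8 calls under RMC-6236 remained and 3 of 8 under the combination did: Tap2, Erap1 and Pdia3. Tapbp and Psmb8 under the combination were then 0.20 ± 0.15 and 0.46 ± 0.20. In cultured KPC cells the 10 markers summed to 11.98 to 13.4 FPKM under tazemetostat, 0.728 to 1.25 with RMC-6236 and 1.40 to 1.497 with the combination, against 7.03 to 7.58 in control, Cd37, Laptm5 and Rac2 were listed at 0 in every control library, and 1 marker was tested. That marker, Cd53, made up most of the tazemetostat and control sums, averaging 10.6 FPKM under tazemetostat, 0.242 under RMC-6236 and 0.128 under both drugs, against 6.08 in control. Of the 8 members that rose in tumours with RMC-6236, Tap2, Tapbp, Psmb8, Psmb10, Psme2 and Pdia3 also rose in KPC cells, Psmb9 was not tested there, and Erap1 was -0.037 ± 0.058, and fell with the combination.

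**Figure D5:**
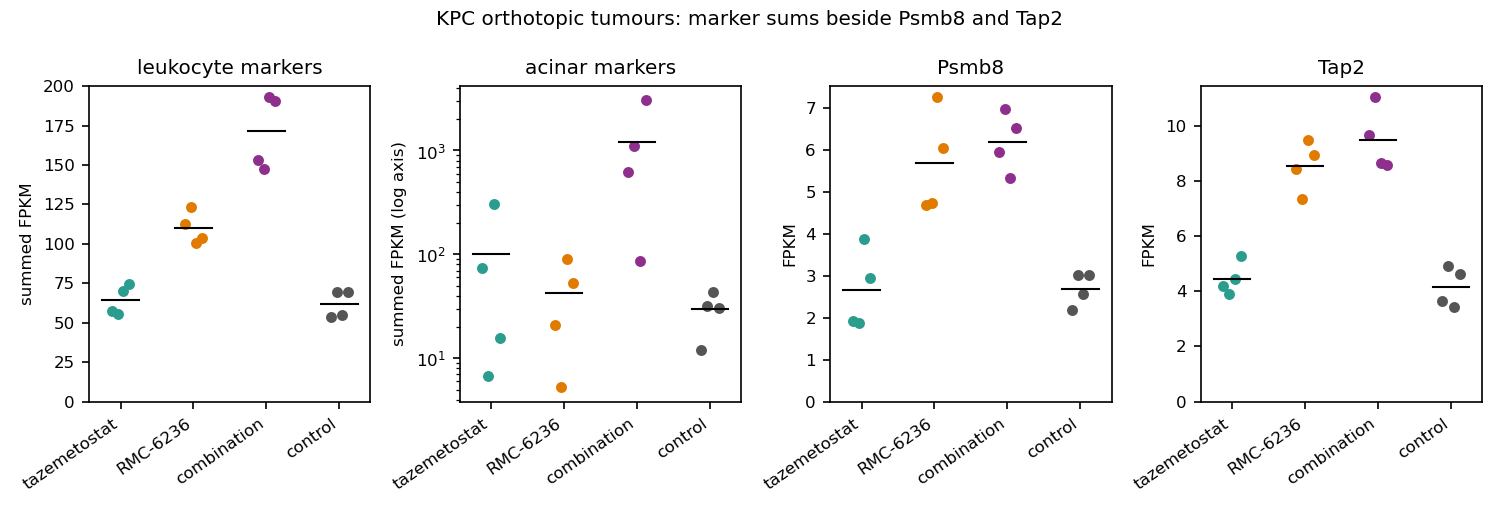
Summed FPKM of the leukocyte markers and of the acinar markers (log axis) in each KPC orthotopic tumour, beside FPKM of Psmb8 and Tap2, by arm, with the mean as a black bar (n = 4). RMC-6236 and combination tumours lie above control for the leukocyte markers, Psmb8 and Tap2, and the acinar markers vary most between combination tumours.

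Genes that regulate the pathway were read from a list of 18 interferon receptors, kinases and transcription factors. With RMC-6236, 15 rose and 2 fell in PSN1, 10 rose and 4 fell in SW1990, and 13 of 17 rose and 3 fell in KPC cells (medians 0.62, 0.33 and 0.43). Over all genes 45.8%, 30.7% and 37.9% were called higher in the same order, and 34.6%, 41.7% and 35.8% lower. STAT2, which acts with IRF9 at the ISRE, rose by 1.71 ± 0.041 in PSN1 and 1.54 ± 0.051 in SW1990, and IRF9 by 2.03 ± 0.19 in SW1990. IRF1, a direct activator of immunoproteasome genes, rose by 0.50 ± 0.035, 0.78 ± 0.055, 0.44 ± 0.050 and 0.35 ± 0.082 in PSN1, SW1990, KPC cells and tumours. NLRC5, the transactivator of MHC class I genes, rose by 0.94 ± 0.041 in PSN1 and 0.59 ± 0.048 in SW1990. In tumours 5 of 17 rose and 7 fell (median -0.070), beside 20.3% of all genes called higher and 19.2% lower. Irf7, an interferon-induced factor that rose by 1.11 ± 0.087 in KPC cells, fell in tumours (-1.60 ± 0.35), and Stat2 was 0.54 ± 0.089 in KPC cells and -0.38 ± 0.13 in tumours. Epithelial markers fell and leukocyte markers rose in the same tumours, and their part in this was not tested.

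The MHC class I chains that the pathway loads rose with RMC-6236 in all 6 genes tested in PSN1, all 7 in SW1990 and all 5 in KPC cells, and in 1 of 6 in tumours. Over all genes 45.8%, 30.7%, 37.9% and 20.3% were called higher in the same order, and the count in tumours was near that share. B2M, the light chain, rose in all 4 tables, by 0.64 ± 0.018, 0.43 ± 0.064, 0.74 ± 0.031 and 0.57 ± 0.20. Tazemetostat alone raised 6 of 6, 6 of 7 and 4 of 5 of the class I genes in PSN1, SW1990 and KPC cells (23.6%, 23.1% and 18.6% of all genes higher). HLA-B changed by 1.23 ± 0.025 with tazemetostat and 1.95 ± 0.025 with the combination in PSN1, and by 1.01 ± 0.031 and 1.80 ± 0.031 in SW1990. H2-K1 changed by 0.96 ± 0.032 and 1.54 ± 0.032 in KPC cells. The members changed with tazemetostat by -0.094 to 0.34 in PSN1 and from -0.18 to 0.075 in SW1990. In tumours the combination raised 5 of 6 class I genes and lowered H2-T23 (26.7% of all genes higher and 25.7% lower), with H2-K1 at 0.64 ± 0.21. Highly similar class I genes can share reads, so values of single heavy chains are uncertain.

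Other loading and trimming genes went in both directions. TAPBPL, a relative of tapasin that edits peptides outside the loading complex, rose with RMC-6236 by 0.73 ± 0.067 in PSN1, 0.50 ± 0.049 in SW1990 and 0.46 ± 0.049 in KPC cells. THOP1 and TPP2, peptidases that act on peptides in the cytosol, fell in all 4 tables, with THOP1 at -0.83, -0.93, -0.98 and -0.32. Of 10 genes in this list 4 rose and 6 fell in PSN1, and 2 rose and 4 fell in SW1990, where 5 rose and 4 fell once libraries were rescaled by the median ratio. Of 9 in the mouse tables, 3 rose and 5 fell in KPC cells, and 1 rose and 2 fell in tumours. Over all genes with RMC-6236, 45.8% were called higher and 34.6% lower in PSN1, and 30.7% and 41.7% in SW1990. The shares were 37.9% and 35.8% in KPC cells, and 20.3% and 19.2% in tumours. The counts of this list and of the next are to be read against these shares. Chaperones and disulfide isomerases of the endoplasmic reticulum, the family of PDIA3, numbered 11. With RMC-6236, 1 rose and 9 fell in PSN1, 3 rose and 3 fell in SW1990 (6 and 1 once libraries were rescaled), 4 rose and 6 fell in KPC cells, and 7 rose and 0 fell in tumours, where Pdia3 rose too. In tumours the combination raised 10 of 11 (26.7% of all genes higher and 25.7% lower), and the acinar markers were up to 3035 FPKM in those tumours. Their part in the result was not tested for this list.

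Genes outside the set whose levels followed it most closely were ranked by Pearson r with the members' mean scaled log2 level, averaged over the 4 tables, among 4159 genes. The highest were MAGED1 (mean r of 0.94), PPIC (0.93), B2M (0.925), KDELR1 (0.92), CD99L2 (0.92) and A4GALT (0.91). For B2M r was 0.95, 0.81, 0.99 and 0.94 in PSN1, SW1990, KPC cells and tumours, over 12 libraries in each cell table and 16 in tumours. The libraries fall into arms, and the points share the differences between arms.

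Some members overlap or closely resemble other annotated genes and may share reads with them. Libraries were stranded, but the strand setting used in counting is not given in the sources used here, and the sharing was not measured. PSMB8-AS1, annotated antisense to PSMB8, was listed at means of 8.05, 12.9 and 19.1 FPKM with tazemetostat, RMC-6236 and the combination in SW1990, against 6.04 in control, and how reads on the 2 strands were assigned is not given. PDIA3 has the pseudogene PDIA3P1 (6.70 FPKM with RMC-6236 and 4.62 in control in PSN1), and Psme2 has the near copy Psme2b (8.17 FPKM with RMC-6236 and 6.27 in control in tumours). Tapbp overlaps Zbtb22 by 3422 bases on the same strand, which was 16.3 FPKM with RMC-6236 and 15.4 in control in KPC cells. Tap1 and Psmb9 overlap by 212 bases on opposite strands.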

How the data were processed

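RNA from 52 samples in 4 tables was analysed; 15 of the 67 labelled samples, KPC tumours grown under the skin, are not analysed here. Per the labels' protocols, RNA was isolated with RNAiso Plus and libraries were made with a stranded mRNA kit from Vazyme and sequenced on a NovaSeq. FastQC 0.11.2, STAR 2.5.3a, StringTie 1.3.1c and the build hg38 are named, per the submitters' processing notes, for every sample; the mouse tables hold mouse gene IDs, and the build used for them is not given in the sources used here. The authors deposited FPKM values, which were used as deposited; 0 value columns were left unmapped. Groups came from sample titles. Genes with at least 1 FPKM in 3 libraries (cells) or 4 (tumours) were tested in limma 3.58.1 (R 4.3.3) on log2(FPKM + 1) with trend and robust options, 1 mean per arm, 6 contrasts per table, two-sided, Benjamini-Hochberg over all genes tested, threshold 0.05. Subunit ratios were compared by exact permutation over samples (scipy 1.17.1). The fits were tested on simulated data with known changes. Members and lists were chosen with earlier results of these data known. Named were all 10 members, up to 4 called genes of each list and the 6 genes most alike; other list genes named were chosen after their values were seen. Alternatives were a pseudocount of 0.1, no filter, median ratio rescaling, a replicate block, plain eBayes, only the arms compared, marker scores as covariates in tumours, and leaving out each library.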

Additional observations from a re-analysis of the deposited data

Results flagged for a closer look

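In the tumour arms, where each group has 4 samples, combination replicate 1 stood apart from the other 3 for Psmb9, at 1.53 FPKM against 1.96 to 2.02, and for the log2 ratio of Psmb9 to Psmb6, at -5.24 against -4.85 to -4.81. These were 2 of 52 groups examined, and chance alone marks about 1 group in 20. Both flags rest on Psmb9 in the same tumour, and the ratio groups reuse values of the gene groups. The groups are therefore not independent, and the count cannot be judged against that rate.

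In 18 pairs of a gene and a contrast every sample of 1 model lay above its comparison samples and every sample of another model lay below. The genes examined were the 10 members, and how often other genes separate in this way is not given here. With RMC-6236 against control, 80.4%, 72.4% and 73.7% of all genes were called in PSN1, SW1990 and KPC cells. The 18 pairs are therefore not shown to be a trait of this gene set. Tables were normalized separately, and the difference between models was not tested. With RMC-6236 against control TAP2 was -0.84 in PSN1, -0.44 in SW1990, 0.64 in KPC cells and 0.89 in tumours (log2 units throughout), and PDIA3 was -0.070 in PSN1, 0.066 in KPC cells and 0.22 in tumours. With the combination against control TAP2 was -0.55 in PSN1, -0.24 in SW1990, 0.85 in KPC cells and 1.03 in tumours, ERAP1 was 0.65 in PSN1, 0.53 in SW1990, -0.27 in KPC cells and 0.62 in tumours, and PDIA3 was -0.075 in PSN1, 0.065 in SW1990, 0.15 in KPC cells and 0.42 in tumours.

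With tazemetostat against control TAP1 was 0.22 in PSN1, -0.12 in SW1990 and 0.38 in KPC cells, TAP2 was 0.083 in PSN1, -0.074 in SW1990 and 0.11 in KPC cells, and TAPBP was 0.34 in PSN1, 0.075 in SW1990 and -0.15 in KPC cells. PSMB8 was 0.22 in PSN1, -0.077 in SW1990 and 0.39 in KPC cells, PSME1 was 0.16 in PSN1, -0.18 in SW1990 and -0.12 in KPC cells, and PSME2 was 0.18 in PSN1 and -0.13 in SW1990.

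For the combination against tazemetostat TAP2 was -0.64 in PSN1, -0.17 in SW1990, 0.74 in KPC cells and 0.95 in tumours, ERAP1 was 0.52 in PSN1, 0.53 in SW1990, -0.16 in KPC cells and 0.50 in tumours, and PDIA3 was -0.089 in PSN1, 0.067 in SW1990, 0.13 in KPC cells and 0.31 in tumours. For the combination against RMC-6236 TAPBP was 0.23 in PSN1, 0.29 in SW1990 and -0.085 in KPC cells, PSMB10 was 0.28 in PSN1, 0.24 in SW1990 and -0.23 in KPC cells, PSME2 was 0.16 in PSN1 and -0.050 in SW1990, and ERAP1 was 0.16 in SW1990 and -0.23 in KPC cells.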

How the results depend on the processing

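No called member reversed under any alternative run. Over settings that kept all libraries, 1401 member values kept their direction and side of the threshold or stayed uncalled, 71 lost a call and 13 gained one; over fits that left out 1 library the numbers were 2902, 116 and 30. Of 4533 values, 61 uncalled ones changed sign. Of the counts of members called, 141 stayed within 1.5 times and 11 did not. With the leukocyte score as covariate the counts in tumours were 1 for RMC-6236 against control (8 without it), 0 for the combination against control (8), 0 against tazemetostat (7) and 0 against RMC-6236 (1). With the acinar score they were 3, 4 and 0 for the combination in the same order. Combination against RMC-6236 in tumours gave 2 after rescaling and 0 with only the arms compared. The KPC cell interaction gave 1 with plain eBayes and 1 with the replicate block (0 without). Leaving out 1 library gave 2 to 6 calls for tazemetostat in SW1990, 4 to 7 for the combination against RMC-6236 in KPC cells, 0 to 2 for the KPC cell interaction (1 without control replicate 1 or 2, tazemetostat replicate 3, or RMC-6236 replicate 1 or 2, and 2 without combination replicate 2), and 0 to 2 for the combination against RMC-6236 in tumours (2 without combination replicate 1). Tumour log2 ratio differences stayed at 0.85 to 1.05 for Psmb8 to Psmb5 with RMC-6236, 0.89 to 1.09 with the combination, and 0.996 to 1.31 for Psmb9 to Psmb6 with the combination, where 3 against 4 samples cannot go below an exact p of 0.0571. The cause of these changes was not tested. Most same-numbered samples did not deviate together: 2 of 18, 3 of 18, 1 of 18 and 4 of 24 pairs correlated above 0.1 in PSN1, SW1990, KPC cells and tumours. The largest r was 0.16, 0.39, 0.13 and 0.34 in the same order. Pairing by number was therefore not shown, but low correlations cannot exclude it. The replicate block moved no other count by more than 1.5 times. Depth is unknown, and values below 1 FPKM, such as Psmb9 in KPC cells, cannot be given a counting error.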
